A study of Mus musculus with 4 samples.

Results

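The SOCS family and the PIM kinases include genes that T cells switch on when cytokines reach them. Their transcripts were followed here in cells labelled as CD4+ T cells, from wild-type mice and from mice bred to lack the kinases MEK1 and MEK2 in T cells. The 10 members, Socs1 to Socs7, Cish, Pim1 and Pim2, were chosen by gene symbol from the 54752 genes counted, and all 10 were abundant enough to be tested. RNA was sequenced from 4 libraries, 2 of wild-type (WT) and 2 of Mek1/2-tKO cells. Mek1/2-tKO mice carried loxP-flanked alleles of both kinase genes (Map2k1 fl/fl Map2k2 fl/fl) and a Cre recombinase driven by the Cd4 promoter, which acts in T-lineage cells from the thymus onward, and the floxed alleles were made on a C57BL/6 background. WT mice were the controls. Naïve CD4+ T cells were isolated from spleen and stimulated through CD3 and CD28 under T follicular helper (Tfh) conditions. The medium of both genotypes held IL-6, and TGF-β, IL-2, IL-4 and IFN-γ were blocked by antibodies. Viable cells were sorted again for RNA on day 3. The age of these mice, and whether replicates were separate mice or cultures, is not given in the sources used here, so the p-values below measure the spread between the libraries, which may be technical.

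Cytokines such as IL-2, IL-6 and IFN-γ bind receptors that carry JAK kinases, the JAKs phosphorylate STAT transcription factors, and the STATs induce target genes. Socs1, Socs2, Socs3, Cish, Pim1 and Pim2 are classical targets of this kind. SOCS proteins and CIS, the product of Cish, then act as a brake: they bind phosphorylated receptors or JAKs through an SH2 domain and recruit a ubiquitin ligase through their SOCS box. The PIM proteins are serine/threonine kinases that act in the other direction on the cell, favouring survival, translation and growth.

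Libraries held between 16330802 and 18931090 counts, and 3 counts corresponded to between 0.158 and 0.184 of every 1000000 counts of a library. Levels are given below as CPM, that is counts scaled to a library total of 1000000 with TMM correction. The Map2k1 transcript stood at 182 and 187 CPM in WT and at 98.0 and 105 CPM in Mek1/2-tKO cells (log2 fold change -0.86, SE 0.08, adjusted p = 1.29e-06 by edgeR). Map2k2 stood at 155 and 165 CPM in WT and at 172 and 182 CPM in Mek1/2-tKO cells (log2 fold change 0.15, SE 0.08, adjusted p = 0.126). A count over the whole gene does not show whether loxP-flanked exons are missing, so Map2k2 checks nothing here.

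Transcripts that mark cell types differed between genotypes as well. Cd4 itself, the marker of the labelled cell type, stood at 297 and 289 CPM in WT and at 18.8 and 25.1 CPM in Mek1/2-tKO cells, and 6 of the 10 markers of alpha-beta and CD4 T cells were lower, none higher. The other 4, Cd3d, Cd3g, Trbc1 and Trbc2, were not called, with log2 fold changes of 0.20, 0.24, 0.16 and -0.03. With the adjusted p alone, 1 of these, Cd3g, passed on the higher side. Of 12 markers of the B lineage, 12 were higher, with summed levels of 1297 to 1314 CPM in WT and 7058 to 7097 CPM in Mek1/2-tKO cells, led by Fcrla. All 10 NK cell markers were higher (130 to 134 CPM against 821 to 905 CPM), and Tyrobp had the largest fold among the well expressed. Both CD8 markers were higher (59.3 to 67.4 CPM against 214 to 238 CPM), as were both matched gamma-delta markers, Trdc and Sox13 (1.74 to 1.76 CPM against 54.9 to 59.5 CPM). Of 12 myeloid markers 6 could be tested and all 6 were higher (4.05 CPM in both WT libraries against 19.7 to 24.1 CPM), and S100a8, C1qa and Adgre1 were at 0 in both WT libraries. Genes at or near 0 in WT, such as S100a8, Adgre1 and Sox13, were abundant enough to be tested only through the Mek1/2-tKO libraries. Their direction was thus set in advance. With at least 10 counts required in every library, 2 myeloid, 1 gamma-delta and 9 NK cell markers could be tested, and all of them were higher. Since these shifts run with genotype in every library, every difference below has them beside it. In bulk RNA, fewer cells of a type and less RNA per cell cannot be told apart, and the part of the other cell types in the results was not tested.

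Between genotypes, a gene was called when the edgeR quasi-likelihood test gave an adjusted p under 0.05 over all 14330 tested genes and the fold was at least 1.5. Of the 10 members, 1 was called higher in Mek1/2-tKO cells, Socs1, against a background of 19.3% of all tested genes. The 2 members called lower were Socs7 and Cish, against a background of 16.4%. Which background was the larger depended on the scaling, since with library size alone 2388 genes were higher and 2848 lower, against 2768 and 2355. With the adjusted p alone, Socs2 on the higher side and Socs3 on the lower side also passed, which makes 5 of 10 members against 55.0% of all tested genes. In 8 of the 10 members the CPM of the 2 genotypes did not overlap, which held for 78.3% of all tested genes. The share of members that differed was thus near the background, and the description below concerns the direction and size in each gene.

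**Figure D1:**
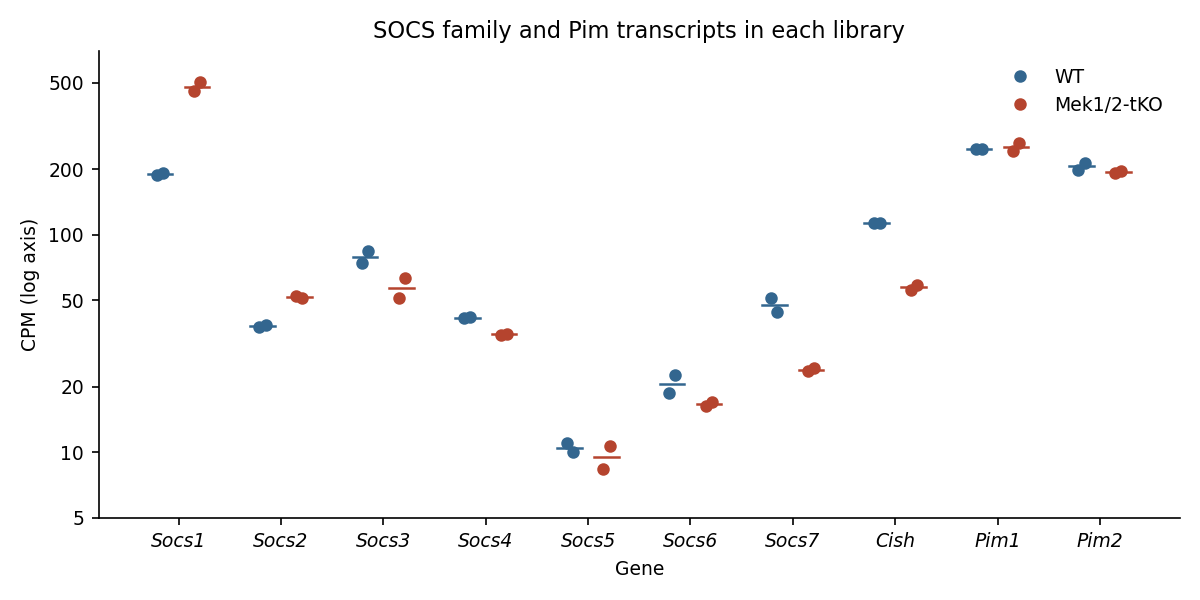
CPM (log axis) of each member in each library; points are libraries (2 per genotype, WT in blue, Mek1/2-tKO in red) and short lines are means. Socs1 rose from a mean of 190.0 to 479 CPM, Cish fell from 113 to 57.3 CPM and Socs7 fell by 0.99 on the log2 scale, and Pim1 and Pim2 lay between 192 and 265 CPM in all libraries.

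Socs1 encodes the family's strongest inhibitor of JAK1, JAK2 and TYK2, known above all as the brake on IFN-γ signalling. It lies on the minus strand of chromosome 16 (GRCm38 chr16:10782240-10785536). Its counts were 3658 and 3706 in the WT libraries and 7094 and 9395 in the Mek1/2-tKO libraries, or 188 and 192 CPM against 458 and 500.3 CPM. Both Mek1/2-tKO libraries stood far above both WT libraries, which differed from each other by a factor of 1.02. The log2 fold change was 1.34 (SE 0.08, 95% confidence interval 1.17 to 1.50, adjusted p = 8.84e-09 by edgeR), a 2.52-fold rise.

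The sequence before the Socs1 start is shown for a motif that was added to the search after the windows had been read. It therefore gives no support for a difference between members. RefSeq promoter windows, from 250 bases before to 50 bases after the start on GRCm38.p6, covered 6 of the 10 members (Socs1, Socs3, Socs4, Cish, Pim1 with 2 windows, and Pim2). They were searched on both strands for a STAT site (TTCNNNGAA), an ETS core (CCGGAAG) and, added after the windows had been read, an interferon regulatory factor (IRF) site (GAAA, any 2 bases, GAAA). The Socs1 window held no STAT site and no ETS core. It held 2 IRF-type matches that overlap each other, at positions -83 and -77 with the start as position 0, and at least 1 such match occurs in 3.44% of the 32851 windows. The stretch below (chr16:10785587-10785686, minus strand, upstream of the annotated gene) has these matches in capitals.
Socs1: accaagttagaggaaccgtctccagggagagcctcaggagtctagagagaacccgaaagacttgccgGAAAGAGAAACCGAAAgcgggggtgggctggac

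Cish encodes CIS, a STAT5-induced inhibitor that binds IL-2 receptor complexes and also dampens T cell receptor signalling. The gene lies on the plus strand of chromosome 9 (chr9:107296026-107302784). Its counts were 2207 and 2178 in WT and 866 and 1102 in Mek1/2-tKO cells, or 113 and 113 CPM against 55.9 and 58.7 CPM. The libraries of each genotype were nearly alike, with a factor of at most 1.05 between replicates, and the genotypes did not overlap. Cish fell by 0.98 on the log2 scale (SE 0.09, 95% confidence interval -1.18 to -0.79, adjusted p = 9.65e-07 by edgeR), which is a factor of 1.97. On the other strand, Gm17040 and Gm17041 overlap 11.5% of its exon bases, but their own counts were at most 30 and 0, and whether reads were counted by strand is not given in the sources used here.

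The Cish start is shown because it holds 2 STAT sites close together, at positions 0 and 11, an arrangement for which this promoter is known. At least 1 STAT site occurs in 8.30% of all windows and 2 or more in 0.457%. The 30 bases below (chr9:107296654-107296683, plus strand) lie inside the annotated Cish gene, and the capitals mark the sites.
Cish: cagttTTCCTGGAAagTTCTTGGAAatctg

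Socs7 encodes a family member with a long N-terminal region, linked mainly to insulin signalling. It lies on the plus strand of chromosome 11 (chr11:97362551-97398542). Its levels were 51.1 and 44.2 CPM in WT and 23.6 and 24.4 CPM in Mek1/2-tKO cells. The 2 WT libraries lay 1.16-fold apart and both were well above the Mek1/2-tKO libraries. Socs7 fell by 0.99 on the log2 scale (SE 0.12, 95% confidence interval -1.25 to -0.73, adjusted p = 1.35e-05 by edgeR). Cish and Socs7 thus dropped by nearly the same factor, and the ratio of Socs7 to Cish counts was 0.451 and 0.391 in WT against 0.423 and 0.416 in Mek1/2-tKO libraries.

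Socs3, which binds the IL-6 receptor chain gp130 and is the main brake on IL-6 and STAT3 signalling, was of interest since IL-6 was in the medium of both genotypes. It lies on the minus strand of chromosome 11 (chr11:117966079-117970047). Its levels were 74.4 and 84.1 CPM in WT and 51.2 and 63.1 CPM in Mek1/2-tKO cells. The genotypes did not overlap, and the replicates lay 1.13-fold apart in WT and 1.23-fold apart in Mek1/2-tKO cells. The log2 fold change was -0.47 (SE 0.11, 95% confidence interval -0.72 to -0.22, adjusted p = 0.00342 by edgeR), below the fold needed for a call. Without Mek1/2-tKO replicate 2 the value was -0.64 and Socs3 was called lower, whereas without Mek1/2-tKO replicate 1 it was -0.33. The Socs3 window held 1 STAT site, at position -154, and no ETS core. It is printed with its surroundings (chr11:117969467-117969566, minus strand, in no annotated exon), the site in capitals.
Socs3: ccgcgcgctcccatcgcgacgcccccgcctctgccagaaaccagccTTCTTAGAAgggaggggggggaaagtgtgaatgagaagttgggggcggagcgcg

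Socs2 encodes a regulator of growth hormone signalling that is also induced by STAT5, as Cish is. The gene lies on the minus strand of chromosome 10 (chr10:95385362-95417180). It stood at 37.5 and 38.6 CPM in WT and at 52.5 and 51.2 CPM in Mek1/2-tKO cells. Here the Mek1/2-tKO libraries were the higher ones, without overlap. The log2 fold change was 0.44 (SE 0.10, 95% confidence interval 0.22 to 0.67, adjusted p = 0.00267 by edgeR), again below the fold needed for a call. Socs2 and Cish, both targets of STAT5, therefore had differences of opposite sign, and the ratio of Socs2 to Cish counts was 0.331 and 0.342 in WT against 0.939 and 0.872 in Mek1/2-tKO libraries.

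Socs4, Socs5 and Socs6, whose products have been studied mostly on growth factor receptors, were not called. Socs4 (chr14:47276931-47296102, plus strand) stood at 41.3 and 41.6 CPM in WT and at 34.8 and 35.0 CPM in Mek1/2-tKO cells (log2 fold change -0.25, SE 0.11, adjusted p = 0.0697 by edgeR). Socs6 stood at 18.7 and 22.7 CPM in WT and at 16.4 and 17.0 CPM in Mek1/2-tKO cells (log2 fold change -0.31, SE 0.15, adjusted p = 0.104). The genotypes did not overlap in either gene, and with library size alone as the scaling the adjusted p came to 0.0238 for Socs4 and to 0.0446 for Socs6. Without WT replicate 2, the log2 fold change of Socs6 was -0.17 (adjusted p = 0.555). Socs5 (chr17:87107679-87137839, plus strand) was the lowest member at 11.0 and 10.1 CPM in WT against 8.40 and 10.7 CPM in the Mek1/2-tKO libraries, with overlap between genotypes. With 130 to 214 counts per library it had the widest interval of the members, from -0.57 to 0.29 on the log2 scale, which lay inside the 1.5-fold threshold. The Socs4 window held none of the motifs.

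Pim1 and Pim2, survival kinases that IL-2 and IL-6 induce through STAT5 and STAT3, had the smallest differences of all members. Pim1 (chr17:29490753-29496112, plus strand) stood at 247 and 247 CPM in WT and at 242 and 265 CPM in Mek1/2-tKO cells. The genotypes overlapped, and the 95% confidence interval of the log2 fold change, -0.12 to 0.20, lay inside the 1.5-fold threshold (adjusted p = 0.68 by edgeR). Pim2 (chrX:7878262-7883432, plus strand) stood at 198 and 214 CPM in WT and at 192 and 196 CPM in Mek1/2-tKO cells. Its interval was -0.25 to 0.08 (adjusted p = 0.378), and the lowest WT library was just above the highest Mek1/2-tKO library. Pim3, the third kinase of the family and not a member here, stood at 169 and 170 CPM in WT and at 169 and 173 CPM in Mek1/2-tKO cells (log2 fold change 0.01, SE 0.08). The Gm26885 gene overlaps 14.5% of the exon bases of Pim1 on the other strand, with at most 2 counts of its own. The 2 Pim1 windows and the Pim2 window held none of the motifs.

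**Figure D2:**
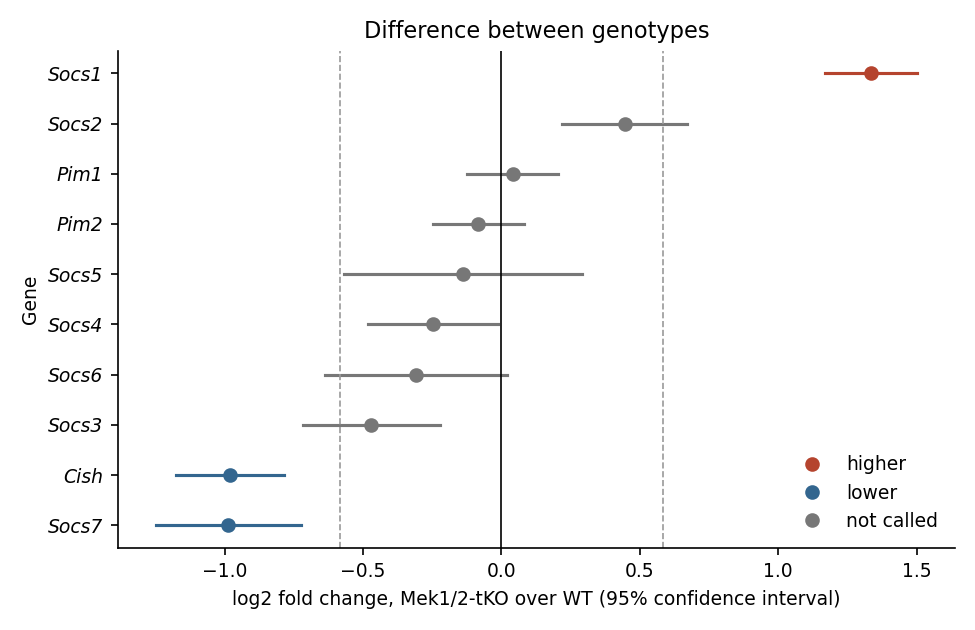
Log2 fold change of each member, Mek1/2-tKO over WT, with its 95% confidence interval (edgeR, 2 libraries per genotype); dashed lines mark a 1.5-fold difference, red is called higher, blue called lower and grey not called. Socs1 at 1.34 and Cish and Socs7 near -0.98 stand apart from the other 7 members, whose values lie between -0.47 and 0.44.

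To compare levels between genes, CPM were divided by exon length in kilobases. On this scale Pim2 and Pim1 led in WT cells at 73.6 ± 4.06 and 73.4 ± 0.03 CPM per kilobase (mean ± SD, n = 2) and overlapped each other. Socs1 followed at 65.3 ± 1.09, then Socs3 at 27.4 ± 2.38 and Cish at 17.6 ± 0.03, while Socs7, Socs4, Socs2, Socs6 and Socs5 ran from 6.56 ± 0.67 down to 1.64 ± 0.10 without overlap between neighbours. In Mek1/2-tKO cells Socs1 was first at 165 ± 10.2 CPM per kilobase, above Pim1 at 75.4 ± 4.71 and Pim2 at 69.5 ± 1.07. Socs7 moved from order 6 to order 8 at 3.31 ± 0.07, behind Socs2 and Socs4. These orders rest on the full annotated exon length, which for Socs2 (9531 bases) and Cish (6419 bases) is far above that of the longest coding transcript (2222 and 2850 bases). By the longest coding transcript, Cish stood above Socs3 in WT cells, with 23.5% and 22.7% of the SOCS family against 17.2% and 18.9%. Socs2 then stood above Socs7 in WT cells already, with 9.99% and 9.97% against 4.31% and 3.61%. The move of Socs7 behind Socs2 thus depends on the length used. In Mek1/2-tKO cells Socs2 stood above Cish by this length, with 10.1% and 9.07% against 8.39% and 8.11%.

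Shares within the 8 SOCS family genes need no scaling between libraries. Of their counts per kilobase, Socs1 held 50.1% and 49.6% in the WT libraries and 78.3% and 78.0% in the Mek1/2-tKO libraries, 28.3 percentage points more. Cish went from 13.7% and 13.2% to 4.33% and 4.15%, and Socs3 from 20.0% and 21.8% to 8.81% and 9.89%. Socs7 went from 5.45% and 4.56% to 1.62% and 1.52%. The shares of a library add up to a fixed total, so a larger Socs1 share leaves less for the other genes. Socs2, which was higher in CPM in Mek1/2-tKO cells, still differed by -0.46 points in its share. Replicates lay within 1.86 percentage points of each other for every gene, against differences of 28.3 points for Socs1 and 9.21 points for Cish. An exact permutation test of 2 against 2 libraries cannot reach p under 0.05, so no test was run on these shares. In raw counts, 1.66 and 1.70 Socs1 reads were present per Cish read in WT and 8.19 and 8.53 in Mek1/2-tKO libraries.

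**Figure D3:**
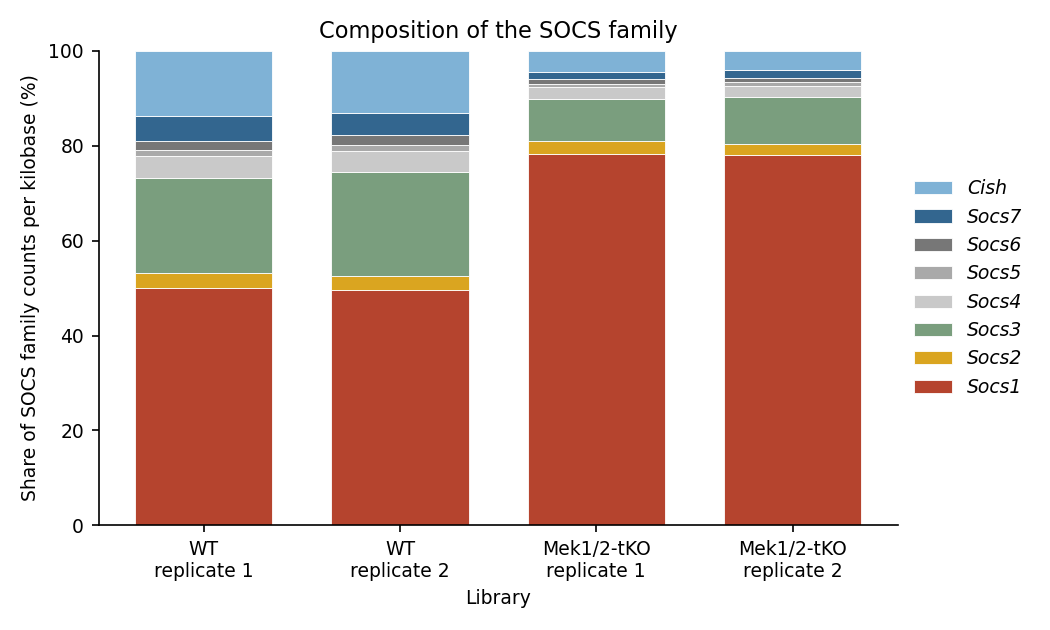
Share of each SOCS family gene in the family's counts per kilobase of exon (%), 1 stacked bar per library. Socs1 fills 49.6% to 50.1% of the WT bars and 78.0% to 78.3% of the Mek1/2-tKO bars, while Cish, Socs3 and Socs7 narrow. All bars have the same height, so a larger Socs1 share by itself narrows the others.

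The cytokines, receptors, kinases and STATs that act before the members were read from the same fit. Among 15 tested cytokines that signal through JAK and STAT, 10 were higher in Mek1/2-tKO cells and 3 lower. Ifng, whose product induces Socs1, stood at 127 and 121 CPM in WT and at 2054 and 1773 CPM in Mek1/2-tKO cells (log2 fold change 3.95, SE 0.10, adjusted p = 1.8e-12 by edgeR). Il2, whose product induces Cish, stood at 113 and 111 CPM in WT and at 15.6 and 9.64 CPM in Mek1/2-tKO cells (log2 fold change -3.17, SE 0.16, adjusted p = 2.71e-09). The largest rise in this group among the well expressed was that of Csf2, the gene of GM-CSF, with a log2 fold change of 4.28. Antibodies against IL-2 and IFN-γ were in the medium of both genotypes, so these transcripts do not give the amount of cytokine that reached a receptor. Ifng is also expressed by NK and CD8 T cells, whose markers rose.

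Of 19 cytokine receptor chains, 4 were higher and 6 lower, with a median log2 fold change of -0.36 against 0.02 for all tested genes. Il2ra, the high-affinity IL-2 receptor chain, stood at 657 and 649 CPM in WT and at 346 and 348 CPM in Mek1/2-tKO cells (log2 fold change -0.91, SE 0.07). Il6ra, which binds IL-6, stood at 22.7 and 24.2 CPM in WT and at 6.07 and 7.08 CPM in Mek1/2-tKO cells, the largest fall among the chains (log2 fold change -1.83, SE 0.17). Il6st, the gene of gp130, was lower as well, at 19.4 and 19.3 CPM against 9.56 and 14.0 CPM, but its call was lost without Mek1/2-tKO replicate 1 (log2 fold change -0.71 with all libraries). The largest rise was that of Il10ra, a chain of the IL-10 receptor, with a log2 fold change of 1.33.

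Among 11 JAK and STAT genes, 5 were lower. Jak2 and Jak3 fell, Jak2 from 296 and 289 CPM to 98.9 and 101 CPM (log2 fold change -1.54, SE 0.08) and Jak3 from 173 and 179 CPM to 71.3 and 83.6 CPM (log2 fold change -1.18, SE 0.09). Jak1 was not called, at 226 and 239 CPM in WT against 199 and 216 CPM (log2 fold change -0.16, SE 0.08, adjusted p = 0.0887 by edgeR). Stat5a and Stat5b, whose products act on Cish, fell with log2 fold changes of -0.90 (SE 0.08) and -0.96 (SE 0.08). Stat3, whose product acts on Socs3, fell with -0.68 (SE 0.07). Stat2 was called higher (log2 fold change 0.64), but the call was lost with library size alone, without WT replicate 1 and without Mek1/2-tKO replicate 2.

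**Figure D4:**
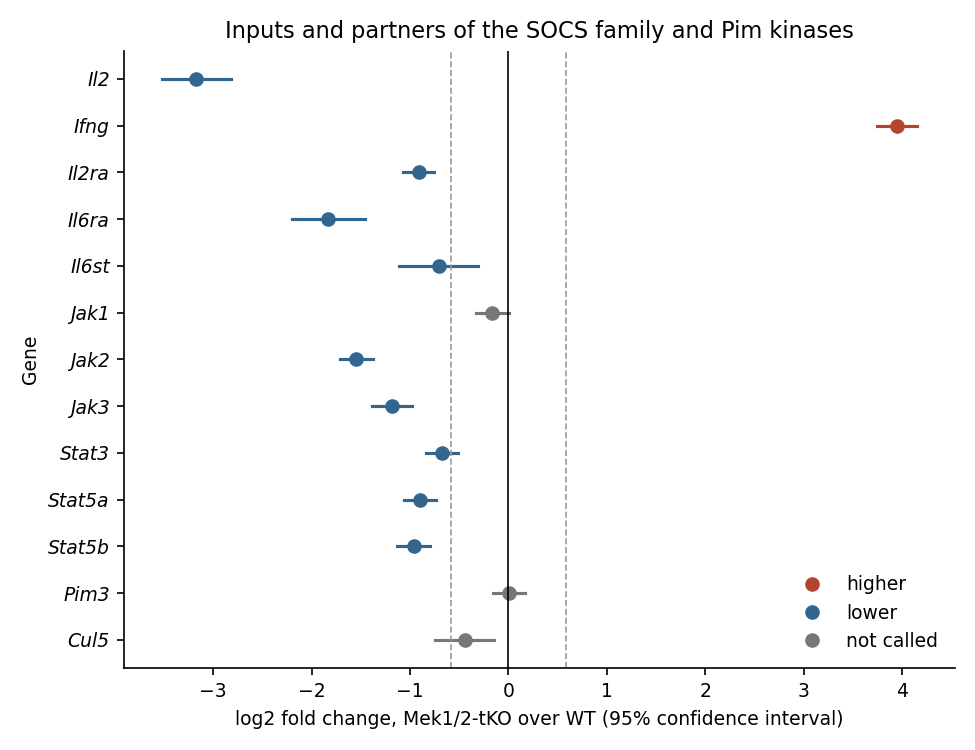
Log2 fold change, Mek1/2-tKO over WT, with its 95% confidence interval (edgeR, 2 libraries per genotype) of 13 cytokines, receptor chains, kinases, STATs and partners of the members; dashed lines mark a 1.5-fold difference. Ifng at 3.95 is on the higher side, Il2, Il2ra, Il6ra, Il6st, Jak2, Jak3, Stat3, Stat5a and Stat5b on the lower side, and Jak1, Pim3 and Cul5 were not called.

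Target genes of STAT5 and STAT3 other than the members were read in the same way. Of 12 targets of STAT5, 1 was higher and 4 lower, with a median log2 fold change of -0.45, and 2 were higher without WT replicate 2 or without Mek1/2-tKO replicate 1. With no filter on low counts, 5 of these targets were lower. Their median came to -0.51 without Mek1/2-tKO replicate 2 and to -0.35 without Mek1/2-tKO replicate 1. With all libraries Gzmb, the gene of granzyme B, was the one that rose (1.78), and Il12rb2 fell most (-1.71). Of 11 tested targets of STAT3, 2 were higher and 3 lower, with a median of -0.19. This median came to -0.43 without Mek1/2-tKO replicate 1 and to -0.08 without WT replicate 2. Among the well expressed of these STAT3 targets, Il17a rose most (4.58) and Myc, a growth regulator, fell most (-1.19). The other target called higher was Bcl6, the gene of a Tfh transcription factor (1.85). The less abundant Il21, the gene of a Tfh cytokine, fell further than Myc (-2.53). The median of all tested genes was 0.02, and some genes, Il2ra and Stat3 among them, stand in more than 1 of the lists named here.

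Genes of the SOCS-box ligase and other inhibitors of JAK and STAT signalling were read from the same fit. Of 7 genes of the ubiquitin ligase that SOCS boxes recruit, 3 were higher, the elongins Elob and Eloc and the ubiquitin-like Nedd8, with log2 fold changes of 0.62, 0.59 and 0.64. All 3 lay close to the 1.5-fold threshold, and none was called with library size alone as the scaling, nor without WT replicate 1, nor without Mek1/2-tKO replicate 1. Cul5, the scaffold of this ligase, stood at 55.6 and 41.3 CPM in WT and at 34.1 and 37.0 CPM in Mek1/2-tKO cells and was not called (log2 fold change -0.45, SE 0.14, adjusted p = 0.014 by edgeR). It was called lower without WT replicate 2, at -0.65, and came to -0.22 (adjusted p = 0.33) without WT replicate 1. Of 12 other inhibitors of JAK and STAT signalling, 3 were higher and 2 lower, with Ptprj, a receptor phosphatase, rising most (1.33) and Pias2, a STAT-binding SUMO ligase, falling most (-0.91).

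Of Pim3 and 11 substrates of the PIM kinases, 1 was higher and 4 lower, and 2 were higher and 5 lower without WT replicate 1 or without Mek1/2-tKO replicate 2. The rise was that of Cdkn1a, a cell cycle inhibitor (log2 fold change 0.91, SE 0.09). The falls were led by Myc (-1.19, SE 0.09) and included the translation regulators Eif4b and Eif4ebp1. Eif4b lay at the threshold, with a fold of 1.501. In this list 3 were lower with DESeq2 size factors as the scaling or with at least 10 counts in every library, and 5 with library size alone. For the pathway that was deleted, 10 of 18 MEK-ERK target genes were lower and 3 higher, with a median log2 fold change of -0.75. Spry1, a feedback inhibitor of ERK signalling, fell most (-2.19), while Ier3, an immediate-early gene, rose most among the well expressed (1.33). Spry2, of the same family as Spry1 and just below that level of expression, rose further than Ier3 (2.38).

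The genes most like Socs1 and Socs7, the called members with the largest difference in each direction, were sought among 9596 well expressed non-member genes by the root mean square distance between log2 CPM profiles over the 4 libraries, each centred on its gene mean. For Socs1 they were Tnfsf10 (distance 0.0174), S1pr4 (0.0241) and Ikzf3 (0.0253). Tnfsf10, the gene of the death ligand TRAIL, stood at 11.9 and 12.1 CPM in WT and at 29.4 and 32.5 CPM in Mek1/2-tKO cells. For Socs7 they were Arhgap39 (0.0252), Ankrd28 (0.0341) and Rev3l (0.0363). With 4 libraries in 2 genotypes, such a likeness says little more than that the fold and the small spread between replicates were alike.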

How the data were processed

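Total RNA of sorted cells was made into stranded, poly(A)-directed libraries and sequenced in pairs of 150-base reads. Per the labels and the study's methods, the authors trimmed reads with Trimmomatic 0.36, mapped them to GRCm38 (mm10) and deposited raw counts per gene from featureCounts (Subread 1.5.1), 1 file per library; the annotation release and strand setting are not given in the sources used here. Symbols came from GENCODE vM21, matched for 54723 of 54752 gene IDs, of which 98.7% had identical coordinates.

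Genotypes were compared on these counts by the quasi-likelihood test of edgeR 4.0.16, run in R 4.3.3 (filterByExpr, TMM scaling, robust dispersion, no covariates, Benjamini-Hochberg adjustment over all 14330 tested genes, two-sided). CPM are TMM-scaled. DESeq2 1.42.0 and other scalings, filters and thresholds served as alternatives, and the fit was tested on simulated counts. Replicates differed by more than sampling noise (mean chi-square per gene 4.11 in WT and 10.7 in Mek1/2-tKO, where 1 is expected from counting alone). The biological coefficient of variation was 0.0918.

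The members and gene lists were chosen with earlier results of these data known. All members are named. Of the lists, the direct inputs and partners of the members are named, and from each list the called gene with the largest fold in each direction among the well expressed (average log2 CPM 3 or more). Other genes (Cd3d, Cd3g, Trbc1, Trbc2, Sox13, S100a8, C1qa, Adgre1, Stat2, Bcl6, Il21, Elob, Eloc, Eif4b, Eif4ebp1, Spry2) were chosen after their values were seen. Of 5 gamma-delta markers, 2 matched a symbol. Protein sequences were not used here, and 1 partner gene and 1 list of target genes are not reported here.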

Additional observations from a re-analysis of the deposited data

How the results depend on the processing

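Socs1, Cish and Socs7 kept their calls under each of the 7 alternatives of tool, scaling, filter and design and without each library, with log2 fold changes of 1.25 to 1.40 for Socs1, -1.06 to -0.95 for Cish and -1.09 to -0.88 for Socs7. Members called higher numbered 1 without any single library, and those called lower 2 to 3. The third was Socs3 without Mek1/2-tKO replicate 2. The fold threshold mattered more. With the adjusted p alone, 2 members were higher and 3 lower, and 3903 genes in all were lower. At a fold of at least 2, Socs1 was the 1 member higher and 0 were lower, since Cish and Socs7 lie just under that fold, and 1725 genes in all were higher and 1040 lower against 2768 and 2355. Pim1 and Socs5 changed sign. Pim1 came to -0.04 with library size alone. It came to -0.03 without Mek1/2-tKO replicate 2 and to 0.10 without replicate 1 of that genotype. Socs5 came to 0.02 without Mek1/2-tKO replicate 1 and to -0.33 without replicate 2.

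The difference in share was 30.5 points for Socs1 and -13.1 points for Cish in raw counts, and 29.5 and -14.9 points by the longest coding transcript (chosen after seeing the data). Without each library it ranged from 28.1 to 28.6 and from -9.45 to -8.96. The Socs2 share differed by 0.0692 points in raw counts against -0.46 per kilobase.

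Deviations of same-numbered libraries did not go together (correlation -0.0262). With 2 libraries per genotype this cannot settle whether same-numbered libraries were paired, which is not given in the sources used here. With the replicate block, 2652 genes were higher and 2300 lower, and the same 3 members were called. Socs5 had the fewest counts (130 to 214) and the widest interval.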
